A study of Homo sapiens with 2 samples.

Results

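MYC, MAX and the MXD proteins form a network of basic helix-loop-helix leucine zipper transcription factors that compete for the same partner and the same DNA. The measurements below are those of 9 genes of this network, chosen by symbol from the 36601 genes of a single-cell expression matrix: MYC, MYCL, MAX, MNT, MXD1, MXD3, MXD4, MXI1 and MGA. All 9 were present in the gene list of the matrix. MYC binds DNA as a dimer with MAX, mostly at E-boxes with the core CACGTG, and raises genes of ribosome biogenesis, nucleotide synthesis and cell growth. The MXD proteins and MNT also dimerise with MAX, recruit SIN3 and histone deacetylases to the same sites, and lower transcription there. In lung adenocarcinoma driven by EGFR, as in many tumours, MYC transcription lies downstream of growth factor signalling, and the balance of activating and repressing MAX dimers is usually read as a balance between growth and cell-cycle exit.

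The cells were PC9, an established line from a human lung adenocarcinoma whose growth depends on mutated EGFR, kept as 1 pooled culture. Lentivirus carrying single guide RNAs (sgRNAs) had been added with polybrene at 8 ug/ml, aiming at infection of about 40% of cells. Puromycin at 1 ug/ml was then used to select against uninfected cells, and 1121 of the cells kept here held no sgRNA UMI. Transcripts and the sgRNA of each cell were read together by 10x Genomics 3' sequencing, and the series lists the sgRNA library and the expression library of these cells as 2 samples. Day 8 is named for this experiment and day 7 for a first harvest, so the day is uncertain. The labels speak both of a knockout and of cells expressing dCas9, which does not cut, so the kind of perturbation is not known here, and every group, controls included, carries the same Cas9. They also describe vectors with tandem sgRNAs, whereas each cell here was assigned by 1 captured sgRNA. The groups were cells assigned to sgRNAs against MYC (94 cells), PGAM1 (333), CTNNB1 (1552), JUN (836), ATF4 (859) and CTCF (1182), and cells with 1 of 4 non-targeting control sgRNAs (700), which per the labels made up 5% of the library. The labels mention only 4 target genes.

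Depth and identity of the cells bear on every value. The 10142 cells kept held 1011 to 39824 gene UMIs (unique molecular identifiers, 1 per captured transcript), with a median of 12239.5. In all, 5556 cells could be assigned to 1 sgRNA. The epithelial markers fitted the label: all 7 (EPCAM, 4 keratins, CDH1 and EGFR) were detected, at 11408 CPM summed (CPM being a gene's UMIs scaled to a fixed total of gene UMIs). Markers of fibroblasts summed to 1.96 CPM with 3 of 5 at 0, those of endothelium to 2.10 CPM, and those of immune cells to 22.5 CPM, of which CD68 gave 19.5. No cell type that should lack the network was present, so the share of these UMIs that comes from free RNA could not be measured.

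The promoters of 3 members are shown, those of MNT and MXD4 because they carry the motif that the network itself binds and that of MXI1 because its transcript differed with a list of hypoxia genes, given further on. Each line gives the 250 bases before an annotated start in the RefSeq promoter table (GRCh38.p14), 5′ to 3′ on the strand of the gene, and windows of 8 of the 9 members, all but MYC, were searched. The window of MXI1 shown lies inside the annotated gene, before the second of its listed starts. Capitals mark CACGTG, or, in MXI1, the shorter ACGTG, which reads CACGT on the printed strand. ACGTG is 1 form of the core of hypoxia response elements, and the other form, GCGTG, was not searched or marked.
MNT, chr17:2401061-2401310, minus strand: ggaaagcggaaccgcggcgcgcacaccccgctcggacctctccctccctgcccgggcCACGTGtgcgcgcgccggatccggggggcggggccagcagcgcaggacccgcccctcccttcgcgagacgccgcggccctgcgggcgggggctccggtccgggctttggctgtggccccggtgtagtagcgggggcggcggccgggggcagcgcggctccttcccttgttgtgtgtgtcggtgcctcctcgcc
MXD4, chr4:2262110-2262359, minus strand: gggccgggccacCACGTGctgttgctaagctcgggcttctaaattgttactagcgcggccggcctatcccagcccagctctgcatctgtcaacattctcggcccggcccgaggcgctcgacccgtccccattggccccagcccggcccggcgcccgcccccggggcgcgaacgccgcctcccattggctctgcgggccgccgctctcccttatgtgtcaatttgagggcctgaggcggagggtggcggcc
MXI1, second annotated start, chr10:110209981-110210230, plus strand: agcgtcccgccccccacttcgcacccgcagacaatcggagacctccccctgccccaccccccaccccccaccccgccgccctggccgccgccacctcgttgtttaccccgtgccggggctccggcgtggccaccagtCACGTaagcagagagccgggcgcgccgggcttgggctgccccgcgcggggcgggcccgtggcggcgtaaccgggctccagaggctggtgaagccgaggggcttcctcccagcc
CACGTG was found at position -193 in MNT and at -238 in MXD4, where -1 is the base before the start, and in none of the other windows of the 8 members. Of 35116 promoter windows of the same length, 6.34% held it. ACGTG, searched on both strands and contained in every CACGTG, was found in 18.5% of all windows. Of the MXI1 windows, numbered 1 to 3, only window 2, the one shown, held it, at -113. Windows 1 and 3 of MXI1 held no ACGTG. The form GCGTG, which was not searched, can be read in windows 2 and 3 of MXI1, so the search does not place the hypoxia core in window 2 alone. The motif ACGTG also stood at -22 in 1 window of MAX and at -8 in 1 window of MGA. In the single window of MXD3, neither the E2F-like motif TTTNNCGC (in 5.92% of all windows) nor TTTGAA, the core of cell-cycle homology elements (in 13.3%), was found, while 2 of the 3 windows of MGA held the former and 1 of these also the latter. These matches describe letters, not bound sites.

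MYC was the most abundant transcript of the network and had the largest variance relative to its mean over cells. Because each UMI stands for a 3' end and not for a length of transcript, levels can be set side by side without scaling to gene length, though capture may differ between genes. MYC (ENSG00000136997, chromosome 8, 127735434 to 127742951) had 10168 UMIs, or 76.1 CPM (exact 95% Poisson interval 74.6 to 77.6), and at least 1 UMI in 55.0% of cells. The highest count in a cell was 15 UMIs, and the variance of its counts over cells was 1.62 times their mean, against 1.02 to 1.24 for the other members. MYC also had the highest mean, 1.00 UMIs per cell against 0.00749 (MYCL) to 0.542 (MXD4). Such a ratio can grow with the mean, so it does not rank the members by how variable they are. Intervals here and below cover counting error only. MYCL (ENSG00000116990, chromosome 1, 39895428 to 39901917), the paralog named for its amplification in small cell lung cancer, was near absent, with 76 UMIs in 75 cells (0.569 CPM). MAX (ENSG00000125952, chromosome 14, 65006101 to 65102695), the shared partner, stood at 25.6 CPM (24.7 to 26.5) with a UMI in 27.7% of cells.

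Among the repressive partners of MAX, MXD4 led and MXD3 was last. MXD4 (ENSG00000123933, chromosome 4, 2247432 to 2262109) stood at 41.1 CPM with a UMI in 40.0% of cells. MXI1 (ENSG00000119950, chromosome 10, 110207605 to 110287365), also called MXD2, stood at 27.1 CPM and in 29.2% of cells. The founding member MXD1 (ENSG00000059728, chromosome 2, 69915109 to 69942945) reached 13.5 CPM and MNT (ENSG00000070444, chromosome 17, 2384073 to 2401060), a repressor known from many tissues, 12.7 CPM. MGA (ENSG00000174197, chromosome 15, 41621224 to 41769940), a large MAX partner that also belongs to a variant Polycomb complex, stood at 12.0 CPM, and MXD3 (ENSG00000213347, chromosome 5, 177305499 to 177312752) at 9.65 CPM. In the order MYC, MXD4, MXI1, MAX, MXD1, MNT, MGA, MXD3 and MYCL, the intervals of MXI1 and MAX overlapped, as did those of MXD1 with MNT and of MNT with MGA, and all other neighbours were apart. Shares of cells depend on depth: after each cell of at least 5000 UMIs was thinned to 5000, MYC was found in 29.8% of cells, MXD4 in 18.7%, MXI1 in 12.4%, MAX in 12.0%, MNT in 6.56%, MXD1 in 6.05%, MGA in 5.73%, MXD3 in 4.23% and MYCL in 0.293%.

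The first comparison asks whether sgRNAs against MYC or 5 other regulators moved any member. The unit was the sgRNA: the UMIs of all its cells were added up, and the 34 sgRNAs that had 20 cells or more entered 1 fit with edgeR's quasi-likelihood test (4 controls, 2 of MYC, 4 of PGAM1 and 6 of each other target). Because a single culture was sampled, a p-value here speaks of differences among sgRNAs, which may be technical, and not among cultures. MYCL did not pass the filter on low counts, and the other 8 members gave 48 estimates. None of the 48 passed an adjusted p of 0.05, and 2 had an unadjusted p under 0.05 (MYC with MYC sgRNAs and MXD4 with CTCF sgRNAs). DESeq2 also called 0, with 2 estimates at an unadjusted p under 0.05, of 54 estimates including MYCL, of which 22 got no adjusted p. Over all 11570 genes, the share called was 0.277% with MYC sgRNAs, 0.389% with PGAM1, 0.00864% with CTNNB1, 0.00864% with JUN, 1.75% with ATF4 and 0.0259% with CTCF sgRNAs. At such shares, 0 of 8 is close to the background. All 6 comparisons share the 4 control sgRNAs.

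In cells assigned to the MYC sgRNAs tested, the MYC transcript was not below its level in controls. With control sgRNAs 1 to 4, MYC stood at 63.1, 72.2, 72.6 and 71.3 CPM. With MYC sgRNA 2 it stood at 142 CPM (38 UMIs in 23 cells, interval 100.4 to 195) and with MYC sgRNA 4 at 86.7 CPM (42 UMIs in 45 cells, 62.5 to 117). Both lay above all 4 controls. The log2 fold change was 0.62 ± 0.25 (SE; 95% interval 0.12 to 1.12; edgeR adjusted p = 0.48; higher in 2 of 2 sgRNAs), which did not pass. It was 0.33 without MYC sgRNA 2, 0.99 without MYC sgRNA 4, and 0.059 under the stricter sgRNA rule (at least 10 UMIs and 90% of the cell's sgRNA UMIs), which left only sgRNA 4 with 27 cells. The other 2 MYC sgRNAs had too few cells for the fit, and stood at 55.9 CPM (6 UMIs in 10 cells, 20.5 to 122) and 98.9 CPM (18 UMIs in 16 cells, 58.6 to 156), on both sides of the controls. The targeted transcript thus gave no check of the sgRNA labels in the direction of a knockdown. For a knockout it checks nothing, since 3' counts also come from an edited transcript. A MYC UMI was found in 54.3% of cells with MYC sgRNAs and 52.1% of control cells, and after thinning to 5000 UMIs in 34.04% of 94 and 26.2% of 691 cells. Median depth was 10275.5 UMIs in cells with MYC sgRNAs, 12110.5 in controls and 11824 to 12659.5 with the other targets, and its part in the result was not tested.

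The partners of MYC gave wide intervals in these few cells. MXD4 stood at 63.5 and 43.3 CPM with MYC sgRNAs 2 and 4, against 37.0, 38.3, 38.3 and 42.4 CPM with the controls, which gave 0.38 ± 0.28 on the log2 scale (edgeR, adjusted p = 0.80). Both values lay above all 4 controls, and the estimate was 0.17 without MYC sgRNA 2 and 0.67 without MYC sgRNA 4. MGA stood at 14.9 and 14.4 CPM (4 and 7 UMIs), also above all 4 controls (9.63 to 12.7 CPM). For 5 of the 8 members the levels overlapped those of the controls. With only 2 sgRNAs against 4, such separation can arise easily, and its share over all genes was not counted. The separations of MYC, MXD4 and MGA are therefore given as levels only. MNT had a log2 fold change of 0.46 ± 0.41, MGA of 0.27 ± 0.49 and MAX of 0.057 ± 0.34. That of MNT was 0.10 without MYC sgRNA 4, 0.052 under the looser sgRNA rule (at least 3 UMIs and 60%) and 1.03 under the stricter one. MXD3, with 3 UMIs for sgRNA 2 and 1 for sgRNA 4, gave the lowest estimate of the 48, -0.86 ± 0.69, which turned to 0.16 without MYC sgRNA 4. Standard errors of the 8 members ran from 0.25 for MYC to 0.69 for MXD3, whose 95% interval was -2.23 to 0.50. The number of MYC UMIs per UMI of the 5 repressors MNT, MXD1, MXI1, MXD3 and MXD4 was 1.12 and 0.808 with MYC sgRNAs 2 and 4, against 0.612, 0.728, 0.689 and 0.667 with the controls. Over the single sgRNAs of the other 5 targets it ran from 0.242 to 1.02, and 1 sgRNA each of ATF4 (1.02), JUN (0.873) and PGAM1 (0.857) lay above MYC sgRNA 4.

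**Figure D1:**
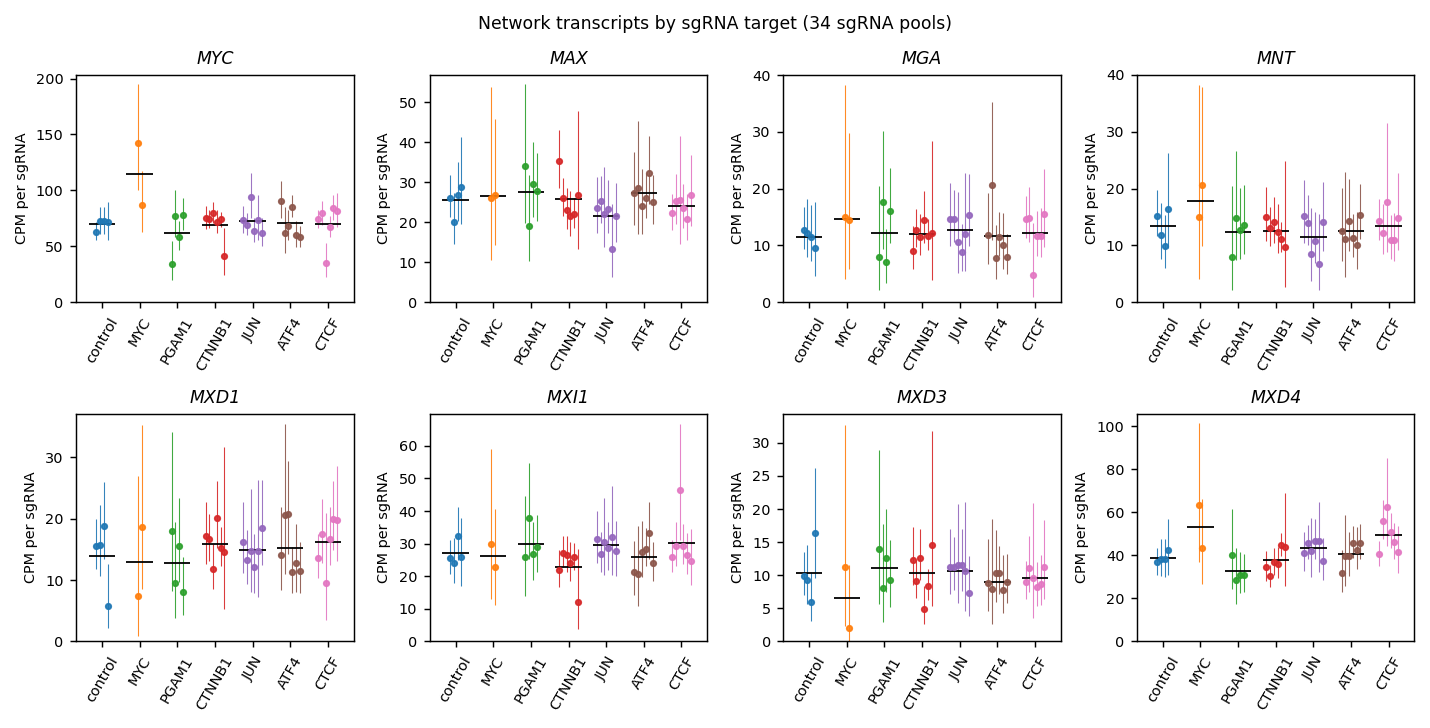
Level of 8 network transcripts (y axis, CPM) in each of the 34 sgRNA sums, grouped by target on the x axis, with points for single sgRNAs, vertical lines for exact 95% Poisson intervals and horizontal bars for the group mean. MYC with MYC sgRNAs (86.7 and 142 CPM) lies above the 4 controls (63.1 to 72.6 CPM), and for the other targets the points of every gene overlap those of the controls.

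With sgRNAs against the other 5 targets, the 40 estimates lay between -0.36 and 0.33 on the log2 scale, and for each target the levels of all 8 members overlapped those of the controls. MXD4 with CTCF sgRNAs was the estimate with the smallest unadjusted p. CTCF encodes the insulator protein of chromatin loops. MXD4 stood at 40.6 to 62.4 CPM over the 6 CTCF sgRNAs, with a median of 48.7, and 4 of the 6 lay above the highest control (42.4 CPM). The estimate, 0.33 ± 0.11 on the log2 scale and above 0 in 6 of 6 sgRNAs, did not pass (edgeR, adjusted p = 0.62). Over the 19 alternatives the estimate ranged from 0.27 to 0.41, with no call. With PGAM1 sgRNAs, against phosphoglycerate mutase of glycolysis, MXD4 stood at 28.4 to 40.03 CPM over 4 sgRNAs, and 3 of the 4 lay below the lowest control (36.95 CPM). The log2 fold change there was -0.30 ± 0.16, with an adjusted p of 0.61 in edgeR. MXD1 with PGAM1 sgRNAs had the lowest estimate of the 40, -0.36 ± 0.26.

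MYC itself gave small estimates with these 5 targets. Its log2 fold change was 0.10 ± 0.11 with CTNNB1 sgRNAs (against beta-catenin, whose complex with TCF factors is known to drive MYC in the intestine), 0.029 ± 0.12 with JUN, 0.035 ± 0.12 with ATF4, 0.11 ± 0.11 with CTCF and -0.083 ± 0.15 with PGAM1 sgRNAs (edgeR adjusted p = 0.93 to 1.0). The 95% interval with CTNNB1 sgRNAs, the group with most cells, was -0.11 to 0.32. Over its 6 sgRNAs MYC ranged from 41.3 to 79.5 CPM, with a median of 74.1. Its direction turned under several alternatives with JUN, ATF4 and PGAM1 sgRNAs and under none run with CTNNB1 and CTCF sgRNAs. MAX, the partner shared by the other members, gave estimates of -0.17 to 0.10, with the narrowest interval, -0.26 to 0.23, for CTNNB1 sgRNAs.

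Genes around the network were read from lists. Of 38 partners and regulators (cofactors such as SIN3A, HDAC1, TRRAP and WDR5, ubiquitin ligases such as FBXW7 and HUWE1, and MGA's complex partners E2F6, L3MBTL2 and PCGF6), 37 were tested. None passed in any of the 6 comparisons (edgeR adjusted p over all genes), with 16 of 222 estimates at an unadjusted p under 0.05 and 0 called by DESeq2. Over all 11570 genes, 498 (CTNNB1) to 1440 (ATF4) had such a p in a comparison. Of the 37 estimates, 27 were below 0 with MYC sgRNAs and 15 to 20 with the other targets. The share of estimates below 0 over all genes was not counted, here or for the lists that follow. Of 43 growth genes known as MYC targets, 42 were tested. With MYC sgRNAs 1 fell and 0 rose, 34 of the 42 estimates were below 0, and the list's median was -0.21 against -0.044 over all genes. In this list 6 genes had an unadjusted p under 0.05, against 906 of all 11570 genes, and DESeq2 called 2. Over all genes, edgeR called 0.277%, and DESeq2 called 81 of 22482. The gene that fell was HSPD1, the mitochondrial chaperonin, at 663 ± 34.2 CPM (SD, n = 2) against 841 ± 57.2 CPM (n = 4). Its estimate was -0.36 ± 0.080 on the log2 scale (edgeR, adjusted p = 0.018), and both sgRNAs were lower. It kept the call in 8 of 13 alternatives and lost it under the stricter sgRNA rule and without control sgRNA 2 or 3 or either MYC sgRNA, within -0.55 to -0.31.

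With ATF4 sgRNAs 5 of the 42 growth genes rose and 0 fell, where 70 of all 11570 genes rose and 133 fell (1.75% called), and the list's median was 0.075 against 0.0031 over all genes, with 28 of 42 estimates above 0 and 4 genes called by DESeq2. Over all genes, DESeq2 called 191 of 22482 with ATF4 sgRNAs. MYBBP1A, a nucleolar MYB-binding protein, rose from 11.4 to 18.4 CPM, ODC1, the first enzyme of polyamine synthesis, from 117 to 159.6 CPM, BOP1, a factor of large-subunit ribosome assembly, from 42.1 to 55.2 CPM, PA2G4, a growth regulator that binds ribosomes, from 209 to 259 CPM, and NME1, a nucleoside diphosphate kinase, from 255 to 305 CPM. The log2 fold changes were 0.71 ± 0.18, 0.38 ± 0.080, 0.33 ± 0.092, 0.25 ± 0.059 and 0.23 ± 0.058 in that order. The edgeR adjusted p values were 0.024, 0.0015, 0.034, 0.0076 and 0.016, with the same direction in 6 of 6 sgRNAs for each. All 5 calls were lost in low-cycle cells alone. Over all genes, 69 of 8204 were called there, against 203 of 11570 in the fit of all assigned cells. In low-cycle cells the log2 fold change of ODC1 was 0.14 (edgeR adjusted p = 0.80), and those of the other 4 were 0.20 to 0.77. ODC1 kept its call in 18 of 19 alternatives, PA2G4 in 16, NME1 in 12, MYBBP1A in 10 and BOP1 in 8. Leaving out a single sgRNA ended the call of PA2G4 (control 4), NME1 (control 1, 2 or 4, or ATF4 sgRNA 1), MYBBP1A (control 1, 2 or 4, or ATF4 sgRNA 4) and BOP1 (control 1, 2 or 3, or ATF4 sgRNA 1, 3 or 6), at log2 fold changes of 0.18 to 0.97 over all alternatives. With PGAM1, CTNNB1, JUN and CTCF sgRNAs none of the 42 passed in edgeR, with 5, 3, 0 and 4 at an unadjusted p under 0.05 and 0 called by DESeq2, and their medians were -0.082, 0.064, 0.023 and -0.0056. Of the 42 estimates, 13, 31, 27 and 20 were above 0 in that order, so a lean of the list to 1 side was not particular to MYC or ATF4 sgRNAs.

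Of 12 genes that MYC is known to repress, 11 were tested, and KLF6, a zinc finger growth suppressor, was the only one that passed in any of the 6 comparisons. Over all 11570 genes, edgeR called 0.389% with PGAM1 sgRNAs and 1.75% with ATF4 sgRNAs. KLF6 fell with PGAM1 sgRNAs (24.5 ± 5.05 against 37.2 ± 3.89 CPM, log2 fold change -0.72 ± 0.18, edgeR adjusted p = 0.043; 4 of 4 sgRNAs) and rose with ATF4 sgRNAs (51.2 ± 13.2 CPM, 0.41 ± 0.12, adjusted p = 0.043; 6 of 6). These calls held in 7 of 17 and 8 of 19 alternatives, and DESeq2 made neither. The first was lost without control 1, 2 or 3 or PGAM1 sgRNA 2, 3 or 4 (-0.80 to -0.54 over the alternatives), the second without control 1, 3 or 4 or ATF4 sgRNA 1, 3, 4 or 6 (0.27 to 0.60). MLX, another partner of MXD1 and MXD4, forms a parallel arm with MLXIP that drives TXNIP, an inhibitor of glucose uptake. TXNIP rose with PGAM1 sgRNAs, from 155.8 ± 11.6 to 202 ± 21.6 CPM (log2 fold change 0.35 ± 0.088, edgeR adjusted p = 0.046; 4 of 4 sgRNAs), and kept the call in 7 of 17 alternatives. It lost the call without any 1 of the 4 controls or 4 PGAM1 sgRNAs, within 0.22 to 0.56. Its relative ARRDC4 did not pass the filter on low counts.

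Across the cell cycle, MXD3, MYC and MXD4 varied, and MAX did not separate the classes. Cells of at least 5000 UMIs (9909) were ranked by the share of their UMIs in lists of G1/S and G2/M genes, none of which is a member. The 1486 cells (15%) highest for G2/M were called G2/M-high, the 1295 highest for G1/S and not G2/M-high were called S-high, and 3918 cells below the median of both lists were called low cycle. These are ranges of a score: 567 and 483 cells lay within 10% of the G2/M and G1/S cut-offs. Cells of 1 culture are not replicates, so no test was made. Each value is given over pooled cells and then within the 6 sgRNA target groups of at least 300 cells (controls, CTNNB1, JUN, ATF4, CTCF and PGAM1), whose spread serves as a guide.

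MXD3, a MAX partner known to be expressed in dividing cells, stood at 3.41 CPM in low-cycle cells (2.89 to 3.99), 10.7 CPM in S-high cells (9.32 to 12.3) and 24.9 CPM in G2/M-high cells (22.9 to 27.0). The order was the same in all 6 target groups. In G2/M-high cells the groups ranged from 19.8 CPM (PGAM1) to 29.2 CPM (ATF4), in S-high cells from 6.84 to 12.3 CPM, and in low-cycle cells from 2.14 to 4.75 CPM. G2/M-high cells thus held 3.92 times the MXD3 level of all other cells (6.35 CPM), with no overlap between the groups. Of the 8 members past the filter on low counts, 2 (MXD3 and MYC) had no overlap between the groups for G2/M-high against other cells. The same 2 had none for low cycle against other cells. Over the 11570 genes the share without overlap was 12.0% and 18.1%, so such a count is not far from the background. At a matched depth of 5000 UMIs, MXD3 was found in 11.8% of G2/M-high and 1.45% of low-cycle cells. Median depth moved with the class, at 15414.5 UMIs in G2/M-high and 10829.5 UMIs in low-cycle cells.

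MYC ran the other way. It stood at 86.3 CPM in low-cycle cells (83.6 to 89.0), 61.8 CPM in S-high cells (58.3 to 65.4) and 59.4 CPM in G2/M-high cells (56.3 to 62.6). Within the target groups it ranged from 79.6 to 89.9, from 48.2 to 59.0 and from 34.7 to 56.2 CPM, so that low-cycle cells lay above both other classes in every group while these overlapped each other. The pooled cells include unassigned cells, among them the FABP5 and GTSF1 cells described below, and lay above the assigned groups in S-high and G2/M-high cells. Per cell, the number of MYC UMIs was 0.995 in low-cycle, 0.916 in S-high and 0.936 in G2/M-high cells, while median depth was 10829.5, 14233 and 15414.5 UMIs. The part of depth in the difference of CPM was not tested. At a matched depth of 5000 UMIs, 32.95%, 23.7% and 24.8% of the cells held a MYC UMI. Against all other cells the log2 ratio was 0.29 in low-cycle cells and -0.42 in G2/M-high cells. The S-high ratio of -0.34 (1 of 8 members without overlap, MYC, against 12.3% of all genes) turned to 0.11 when both cycle shares were doubled to 30%.

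MXD4 followed MYC more than MXD3. It stood at 50.4 CPM in low-cycle (48.3 to 52.5), 30.7 CPM in S-high (28.3 to 33.3) and 31.5 CPM in G2/M-high cells (29.3 to 33.9). Low-cycle cells were higher than the rest in 6 of 6 groups, although the ranges over groups overlapped (36.4 to 58.1 against 28.6 to 40.9 CPM). Over 10 equal bins of G2/M share, MXD4 went from 57.9 CPM in the lowest to 31.8 CPM in the highest, whereas MYC was at 81.7 CPM in the lowest bin, 95.4 CPM in the fifth and 53.1 CPM in the eighth. MAX stood at 25.1, 23.8 and 25.7 CPM in the 3 classes, with overlapping intervals. MXD1 (13.3, 13.9 and 13.1 CPM), MNT (13.0, 11.5 and 11.2) and MGA (11.8, 13.3 and 11.6) also had overlapping intervals. MXI1 stood at 29.1 CPM in low-cycle (27.6 to 30.7), 23.8 CPM in S-high (21.7 to 26.1) and 28.3 CPM in G2/M-high cells (26.2 to 30.5). Its pooled S-high interval thus lay below both others, while its ranges over the target groups overlapped. MYCL had 22 UMIs in G2/M-high cells, 0.939 CPM (0.589 to 1.42), against 0.483 CPM (0.362 to 0.632) in other cells, and was higher in 6 of 6 groups. The 22 UMIs were divided among these groups and the unassigned cells, so each group value rests on very few UMIs.

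**Figure D2:**
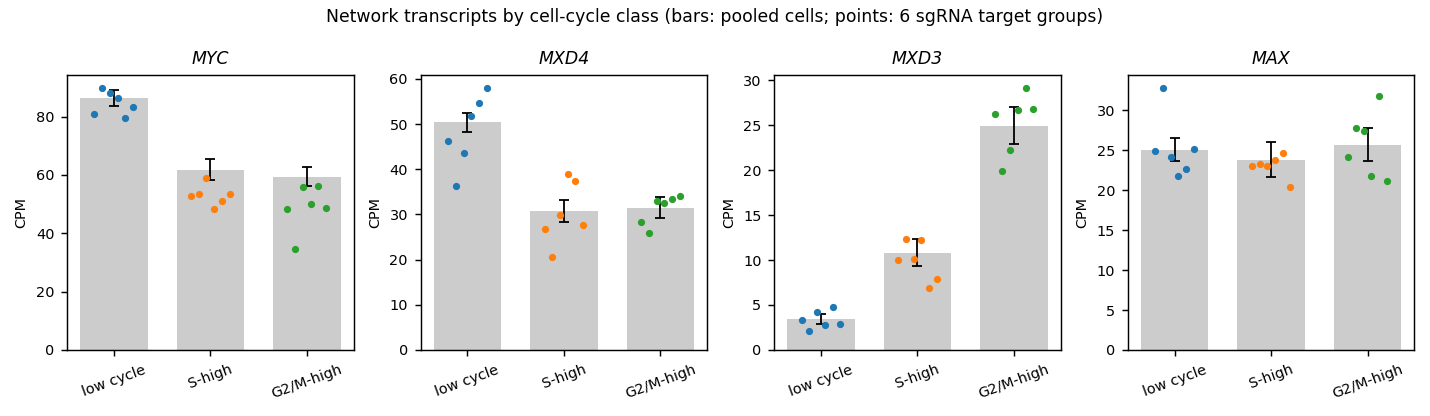
Level (y axis, CPM) of MYC, MXD4, MXD3 and MAX in low-cycle, S-high and G2/M-high cells, with bars for pooled cells, error bars for exact 95% Poisson intervals and points for the 6 sgRNA target groups. MXD3 goes from 3.41 to 24.9 CPM over the classes, MYC (86.3 to 59.4 CPM) and MXD4 (50.4 to 31.5 CPM) are highest in low-cycle cells, and MAX stays between 23.8 and 25.7 CPM.

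MXI1, a gene known to be induced by hypoxia-inducible factor, was higher in hypoxia-high cells. The 991 cells (10%) with the highest share of 17 hypoxia genes such as CA9, VEGFA and ADM had MXI1 at 43.7 CPM (39.9 to 47.7), against 25.5 CPM (24.6 to 26.4) in all other cells. In controls it stood at 47.1 against 24.2 CPM, with CTNNB1 sgRNAs at 42.4 against 23.8, with JUN at 50.5 against 26.8, with ATF4 at 34.8 against 26.2, with CTCF at 49.8 against 26.05 and with PGAM1 at 43.4 against 28.1 CPM. Every hypoxia-high value was thus above every other value, for 1 of the 8 members, MXI1, and for 9.13% of all genes. Such a count is not far from the background. The log2 ratio was 0.78, and it was 1.03 for the top 5% and 0.48 for the top 20% of cells. MXI1 was level over the first 8 of 10 bins of hypoxia share, at 23.4 to 26.3 CPM, then 27.8 CPM in the ninth and 43.7 CPM in the last. At matched depth it was found in 18.1% against 11.8% of cells. MXD4 was higher as well in 6 of 6 groups, at 47.8 against 40.5 CPM, with overlap, while MXD1 was lower in 6 of 6, at 11.3 against 13.6 CPM, also with overlap. MYC stood at 81.5 against 75.5 CPM, higher in 5 of 6 groups, but its log2 ratio of 0.11 turned to -0.10 within low-cycle cells. Hypoxia-high cells were shallower (10411 against 12581.5 UMIs at the median), and 518 cells lay within 10% of the cut-off.

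**Figure D3:**
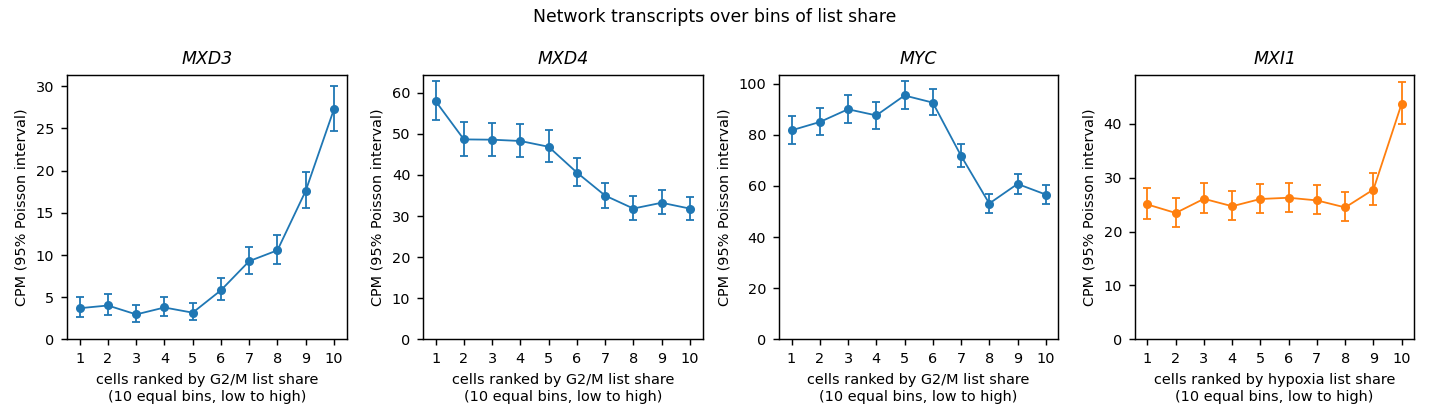
Level (y axis, CPM with exact 95% Poisson interval) of MXD3, MXD4 and MYC over 10 equal bins of cells ranked by G2/M list share, and of MXI1 over 10 bins of hypoxia list share (x axis, low to high). MXI1 is at 43.7 CPM in the highest hypoxia bin and at 23.4 to 27.8 CPM in the others, and MXD3 reaches 27.3 CPM in the highest G2/M bin, where MXD4 (31.8 CPM) and MYC (56.6 CPM) are lower than in the lowest bin.

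The cells highest in secreted factors such as CXCL8 and INHBA had more MYC. In these 991 cells MYC stood at 94.9 CPM (89.8 to 100.2), against 73.8 CPM (72.2 to 75.4) in the others. Over the target groups it ranged from 82.7 to 95.96 against 63.5 to 72.9 CPM, without overlap, for 1 of the 8 members, MYC, and for 2.42% of all genes. The log2 ratio was 0.36, and 0.23 in cells with at most 10% mitochondrial UMIs. It was 0.39 within low-cycle cells. MXD1 was also higher, at 17.4 against 12.95 CPM, in 5 of 6 groups, the exception being JUN sgRNAs (11.5 against 14.8 CPM). MYCL had a single UMI in these cells.

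In the remaining states the members differed less. MNT was lower in the cells highest in PSCA, CEACAM6 and related surface genes, at 10.9 (9.17 to 12.9) against 12.9 CPM, without overlap between groups (7.59 to 11.3 against 12.6 to 13.96 CPM), for 1 of the 8 members, MNT, and 5.86% of all genes. Its log2 ratio of -0.24 shrank to -0.048 within low-cycle cells. MYC in these cells was lower in 5 of 6 groups, but in controls it was higher (84.8 against 66.5 CPM). In cells high in amino acid stress genes such as ASNS and DDIT3, MYC stood at 63.6 against 77.3 CPM with overlap, a log2 ratio of -0.28 that turned to 0.011 within low-cycle cells. For stress genes, immediate early genes and interferon genes, 0 of 8 members were free of overlap, against 2.06%, 1.88% and 6.08% of all genes. MXD4 in interferon-high cells stood at 49.2 against 40.4 CPM, higher in 5 of 6 groups, and MGA at 10.2 against 12.2 CPM, lower in 6 of 6 with overlap.

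A small set of cells stood apart, with MYC above its level in each of the states given so far. FABP5, a fatty acid binding protein, and GTSF1, a gametocyte gene, were found in only 446 cells, so the threshold of at least 5 UMIs of both together was set after the values were seen, and gave 256 cells. MYC stood at 174 CPM in them (527 UMIs, 160 to 190), against 73.8 CPM (72.3 to 75.3) in the other 9886 cells. At matched depth 50.2% against 29.3% of cells held a MYC UMI. Over rising counts of FABP5 and GTSF1, MYC stood at 73.3 CPM with none, 83.2 CPM with 1 or 2 UMIs, 165.9 with 3 or 4, 160.1 with 5 to 9 and 188 CPM with 10 or more. No test was made on these cells.

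The other members did not move together with MYC there. MGA was higher, at 23.2 (18.1 to 29.3) against 11.8 CPM, and so was MXI1, at 36.7 (30.2 to 44.2) against 26.9 CPM. MXD1 was lower, at 3.97 (2.05 to 6.94) against 13.7 CPM, as were MNT, at 6.95 (4.30 to 10.6) against 12.8 CPM, and MXD4, at 26.1 (20.7 to 32.6) against 41.5 CPM. MAX (28.8 against 25.5 CPM) and MXD3 (12.2 against 9.59 CPM) had overlapping intervals, and MYCL had 9 UMIs, 2.98 CPM (1.36 to 5.65), against 0.513 CPM. The 43 growth genes summed to 1.23 times their level in other cells, and the 12 repressed genes to 1.43 times, in cells of at least 5000 UMIs. Other measures differed in the same cells: EGFR stood at 108.5 against 399 CPM, KRT7 at 755 against 2487 and EPCAM at 308 against 267 CPM. The 7 epithelial markers summed to 7982 against 11487 CPM, those of immune cells to 8.93 against 22.8 and those of fibroblasts to 5.62 against 1.88 CPM. In the 256 cells that fibroblast sum was all COL1A1, with the other 4 markers (COL1A2, DCN, LUM and PDGFRB) at 0, and PTPRC, CD3E, MS4A1 and PECAM1 were at 0 too. Median depth was 9768 against 12275 UMIs. Their part in the result was not tested. An sgRNA was assigned to 35 of the 256, 13.9% of those with at least 5000 UMIs against 56.5% of other cells. MYC stood at 115 CPM (89.03 to 146) in these 35 and at 189 CPM (172 to 207) in the 221 without an assigned sgRNA, whose median depths were 15547 and 9273 UMIs. None of the cells assigned to MYC sgRNAs was among them.

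**Figure D4:**
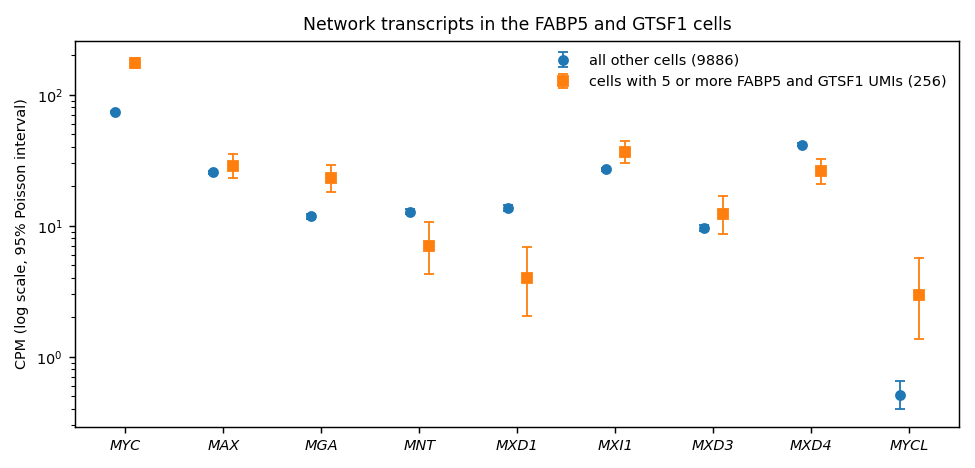
Level (y axis, CPM on a log scale, with exact 95% Poisson intervals) of the 9 network transcripts (x axis) in the 256 cells with at least 5 UMIs of FABP5 and GTSF1 together (squares) and in the other 9886 cells (circles). MYC (174 against 73.8 CPM), MXI1, MGA and MYCL are higher in the former and MNT, MXD1 and MXD4 lower.

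Gene by gene over single cells, correlations with MYC were weak. Only MYC was found in at least 20% of thinned cells, the minimum for ranking. Over 9909 cells that share 1 library, the genes with the highest Pearson r on log2(UMI + 1) were DKK1 (0.115), a secreted Wnt inhibitor, AKAP12 (0.096), a scaffold of protein kinase A, AREG (0.084) and EREG (0.081), ligands of EGFR, and KRT8 (0.076), a keratin, among 7556 genes. Without the FABP5 and GTSF1 cells the order was KRT8 (0.077), PLK2 (0.069), GPRC5A (0.059), EREG (0.058) and CCND1 (0.057), so that DKK1, AKAP12 and AREG left the leading 5. The summed growth genes had r = 0.072 with MYC in those cells, and the summed repressed genes 0.015. Among members, MXD3 was the most negative with MYC (-0.044) and the rest lay between -0.011 and 0.010. In counts this sparse, such values describe the cells and are no more than that.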

How the data were processed

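The deposited values were raw UMI counts per gene and cell barcode, whole numbers, written by Cell Ranger (6.1.2, per the file headers), and the genome was hg38, per the submitters' processing notes. Aligner settings, any filter on barcodes and any removal of doublets by the authors are not given in sources used here. Of 10847 barcodes, which the sgRNA and expression libraries share, 10142 were kept (at least 1000 gene UMIs and 500 genes, at most 20% mitochondrial UMIs). A cell was assigned to its leading sgRNA at 5 or more UMIs and 80% of its sgRNA UMIs. No doublet caller was used, and this rule was the only guard against doublets.

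Counts summed per sgRNA were tested with edgeR 4.0.16 (TMM scaling, filterByExpr, 1 fit for all targets, Benjamini-Hochberg adjustment over the 11570 genes of each comparison, threshold 0.05), after the script was tested on simulated data. The biological coefficient of variation was 4.64%. CPM are counts scaled to a common total of gene UMIs, as mean ± SD over sgRNAs or over pooled cells with an exact 95% Poisson interval. Shares of cells were also taken after thinning to 5000 UMIs. A culture state is the top 10% of cells of at least 5000 UMIs by share of UMIs in a gene list. DESeq2 1.42.0, other scalings, filters, sgRNA rules, cell subsets and leaving out each sgRNA were alternatives. Settings that involve the FABP5 and GTSF1 cells were chosen after seeing the data, since the planned share of cells could not be applied to genes found in so few cells.

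The members and lists were chosen with earlier results of these data known, so the lists are no independent evidence. All 9 members are named, with list genes past the threshold (at most 6 for each list and comparison) and the 5 genes with the highest correlation. Control and target sgRNAs share numbers that only name them, and pair nothing. No column of another series was present.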

Additional observations from a re-analysis of the deposited data

Results flagged for a closer look

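Among 48 groups of sgRNA levels (8 members in the controls and in each of the 5 targets with at least 4 sgRNAs), 10 held a highest or lowest sgRNA whose gap to its nearest neighbour was large for the range of its group by Dixon's rule. Chance flags about 1 in 20 groups when all values of a group have equal spread. The sums here came from 32 to 492 cells, and the same sums recur over the 8 members. The 10 flags were therefore not set against that rate.

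MYC was flagged 4 times. It stood at 63.1 CPM with control sgRNA 1 (300 cells), with the other 3 controls at 71.3 CPM or above. It stood at 41.3 CPM with CTNNB1 sgRNA 6 (17 UMIs in 32 cells), next to 71.8 CPM, and at 35.2 CPM with CTCF sgRNA 3 (22 UMIs in 48 cells), next to 67.1 CPM. With JUN sgRNA 3 it stood at 93.9 CPM (89 UMIs in 81 cells), next to 73.6 CPM. Without control sgRNA 1 the directions of MYC with JUN and ATF4 sgRNAs turned, and none of these estimates passed with or without it.

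The same small sums recurred for other members. MXI1 stood at 12.2 CPM with CTNNB1 sgRNA 6 (5 UMIs) and at 46.4 CPM with CTCF sgRNA 3 (29 UMIs), and MGA at 4.80 CPM with CTCF sgRNA 3 (3 UMIs). MAX stood at 13.3 CPM with JUN sgRNA 5 (10 UMIs in 56 cells), MXD3 at 7.36 CPM with JUN sgRNA 6 (12 UMIs in 136 cells) and MGA at 20.7 CPM with ATF4 sgRNA 2 (13 UMIs in 49 cells).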

How the results depend on the processing

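None of the 843 estimates of the 8 tested members under the alternatives passed (lowest edgeR or DESeq2 adjusted p 0.15), and 90 had the opposite sign to the value reported. The direction of MYC turned with PGAM1 sgRNAs under the looser sgRNA rule (0.0041), in low-cycle cells (0.17) and without PGAM1 sgRNA 1 or 3 (range over left-out sgRNAs -0.26 to 0.017), with JUN sgRNAs under the stricter rule (-0.029), at 10% mitochondrial UMIs (-0.014) and without control sgRNA 1 or JUN sgRNA 3 (range -0.044 to 0.066), and with ATF4 sgRNAs under the stricter rule (-0.12), at 10% mitochondrial UMIs (-0.12), in low-cycle cells (-0.042) and without control sgRNA 1 or ATF4 sgRNA 1 or 4 (range -0.070 to 0.11). MXD3 with MYC sgRNAs turned to 0.16 without MYC sgRNA 4 (range -2.20 to 0.16). The MYC ratio in S-high cells turned to 0.11 at the doubled share. The MXI1 ratio in hypoxia-high cells moved to 1.03 at the top 5% and 0.48 at the top 20% of cells, and that of MYC in secreted-factor cells to 0.23 at 10% mitochondrial UMIs. The cause was not tested. The other ratios reported for MXD3, MYC and MXD4 in low-cycle and G2/M-high cells kept their direction in every alternative run. No MYC sgRNA kept 20 cells at 10% mitochondrial UMIs or in low-cycle cells, so those fits gave no value. Depth limits the low members there most, since the 2 fitted MYC sgRNAs held 4 UMIs of MXD3 and 1 of MYCL. No paired analysis was possible because sgRNA numbers of different targets name unrelated sgRNAs.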

Other observations

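MXD1 differed between cells by how their sgRNA was read, a split that no comparison above used. Without the FABP5 and GTSF1 cells, MXD1 stood at 15.2 CPM (14.3 to 16.1) in the 5521 assigned cells, 13.5 CPM (11.5 to 15.8) in 1009 cells with no sgRNA UMI, 13.0 CPM (11.6 to 14.5) in 2068 cells with 1 to 4 UMIs of the leading sgRNA and 9.73 CPM (8.48 to 11.1) in 1288 cells with at least 5 UMIs of mixed sgRNAs. MGA was also lowest in the mixed cells, at 8.57 CPM (7.40 to 9.87), against 12.1 CPM (11.3 to 12.9) in assigned cells. MYC was highest in the cells with no sgRNA UMI, at 83.1 CPM (78.0 to 88.4) against 72.1 CPM (70.2 to 74.1) in assigned cells. MAX was highest there too, at 29.6 CPM (26.6 to 32.8) against 24.7 CPM (23.6 to 25.9) in assigned cells. MNT was lowest in the mixed cells, at 10.8 CPM (9.45 to 12.2), against 13.8 CPM (12.3 to 15.3) with 1 to 4 UMIs. Its interval in assigned cells (12.0 to 13.7) overlapped that of the mixed cells. MXD4 (40.1 to 43.2 CPM), MXI1 (26.2 to 29.3 CPM) and MXD3 (9.11 to 10.2 CPM) had overlapping intervals in the 4 classes. The mixed cells had a median depth of 17306 UMIs, against 11523 to 12218 in the other classes, and no test was made between classes of cells of 1 culture.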
